A study of Homo sapiens with 6 samples.

Results

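The transcripts described here are those of 6 interferon regulatory factors (IRF1, IRF2, IRF3, IRF5, IRF7 and IRF9) and 2 signal transducers and activators of transcription (STAT2 and STAT3) in MDA-MB-231 cells, a human triple-negative breast cancer (TNBC) line with mesenchymal features. They were chosen by name and matched by gene symbol to the deposited tables, which list 58735 genes, and all 8 were among the 14736 genes that passed the filter on low counts. Wild-type cells of this single line received the vehicle or 100 mg/l of SCH, an aqueous extract of the herb Salvia chinensis Benth, for 24 h, in 3 samples per group that the series describes as biological repeats. The comparison of SCH with vehicle asked which transcripts of TNBC cells change under the extract. Counts on genes came to 20291379, 18714240 and 18334857 in vehicle samples 1 to 3 and to 16836369, 17979434 and 18414924 in SCH samples 1 to 3.

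IRF and STAT proteins carry signals from the cell surface and from sensors of foreign or misplaced nucleic acid to the nucleus. Sensors such as RIG-I, STING and Toll-like receptors lead to phosphorylation of IRF3, IRF5 and IRF7, which switch on interferon genes. Interferon receptors then activate Janus kinases (JAKs), and a complex that holds STAT2 and IRF9 binds the interferon-stimulated response element (ISRE), while STAT3 mainly answers cytokines of the interleukin-6 (IL-6) family and is often active in TNBC. IRF3, IRF5, IRF7 and the STATs are switched on chiefly by phosphorylation, whereas IRF1, IRF2 and IRF9 are controlled largely through their amount. A transcript level gives the amount of message and not the activity of the factor.

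Marker genes were checked against the labelled cell line. FPKM is the count divided by the length of a gene's annotated exonic bases and scaled per sample. VIM, CD44, CAV1 and AXL, genes of mesenchymal breast cancer cells, summed to 749, 764 and 755 FPKM in the vehicle samples and to 484, 494 and 489 in the SCH samples. VIM, CAV1 and AXL fell, with log2 fold changes of -0.56, -1.17 and -0.84, and CD44 was not called at 0.033 (adjusted p = 0.547). ESR1 had at most 4 counts in any sample and PGR at most 1, while ERBB2 stood at 6.67 FPKM with vehicle and 8.22 with SCH. Among 4 epithelial markers, CDH1 had at most 6 counts and KRT8 was the most abundant on average over the 6 samples. The 4 summed to 266, 275 and 251 FPKM with vehicle and to 195, 184 and 189 with SCH. Of 5 leukocyte markers, CD14 was the most abundant and CD3E had at most 1 count, and the 5 together summed to 0.671, 0.870 and 0.495 FPKM with vehicle and 0.636, 0.752 and 0.486 with SCH. PTPRC, the general leukocyte marker, had 39, 37 and 34 counts with vehicle and 4, 9 and 3 with SCH.

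All 8 transcripts rose with SCH by edgeR's quasi-likelihood test with Benjamini-Hochberg adjustment over all tested genes (adjusted p under 0.05). The treatment moved much of the transcriptome: the same test called 58.7% of all tested genes, 29.3% of them raised and 29.4% lowered (4318 and 4332 genes). Every SCH sample lay above every vehicle sample for each of the 8, as it did for 31.1% of all tested genes. Their median log2 fold change was 0.64, beside -0.0034 over all tested genes, and was 0.40 with limma on log2(FPKM + 1). IRF7 alone also passed a log2 fold change of 1, as did 3.89% of all tested genes in that direction. Taken one gene at a time over samples, an exact two-sided permutation test gave p = 0.1 for each of the 8, the smallest that 3 samples against 3 allow. Scaling by library size alone shifted the median of all genes by 0.10 on the log2 scale and turned the split into 5519 raised and 3295 lowered genes, and all 8 remained raised. In bulk RNA, more message per cell and more cells holding it cannot be told apart.

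**Figure D1:**
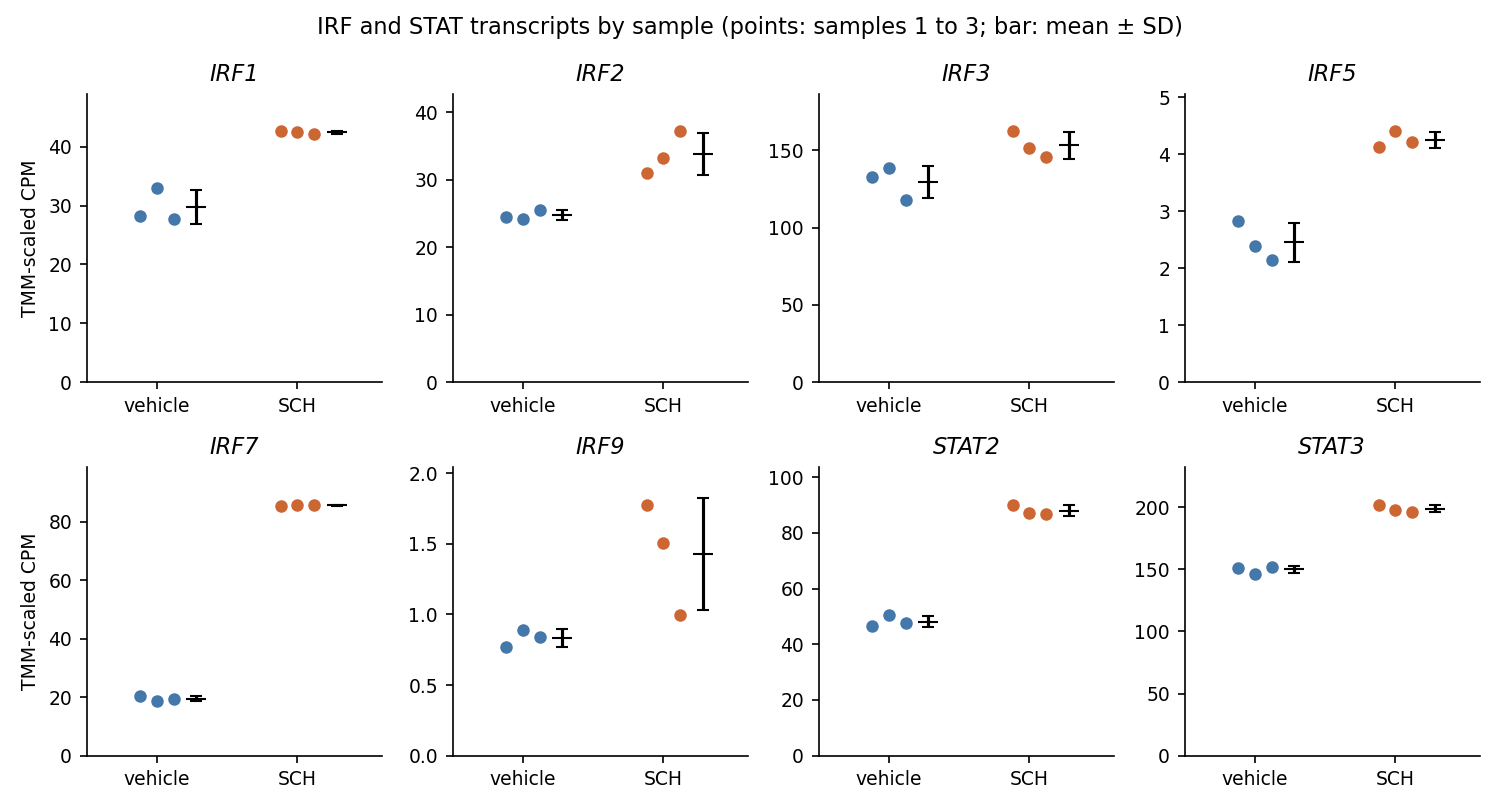
Level of each of the 8 transcripts in every sample, in CPM (depth-scaled counts with TMM factors; y axis, from 0), with the 3 vehicle samples in blue, the 3 SCH samples in orange and the mean ± SD as a black bar. In each panel every SCH sample lies above every vehicle sample. Relative to the level of the gene, the gap is widest for IRF7 and narrowest for IRF9 and IRF3.

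IRF7, the factor that amplifies interferon-α production and is itself induced by interferon in most cells, moved the most (ENSG00000185507, chromosome 11 at 612553 to 615999, minus strand, GRCh38). Its level was 20.4, 18.5 and 19.5 CPM (depth-scaled counts with TMM factors) in the vehicle samples and 85.4, 85.9 and 85.8 CPM in the SCH samples. The SCH samples nearly coincided, and the distance between the groups far exceeded the spread within either. The mean went from 19.5 ± 0.928 to 85.7 ± 0.289 CPM (SD, n = 3 each), a fold change of 4.39 and a log2 fold change of 2.14 (SE 0.065, 95% interval 2.0 to 2.27, adjusted p = 1.2e-17). That placed IRF7 at position 49 of the 14736 genes when ordered by log2 fold change.

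IRF3, the ubiquitous factor that sensors of viral RNA and of cytosolic DNA activate first, was the most abundant of the 8 in FPKM and changed the least (ENSG00000126456, chromosome 19 at 49659569 to 49665875, minus strand). It stood at 132, 138 and 118 CPM with vehicle and at 162, 152 and 146 CPM with SCH. The groups came close, with the lowest SCH sample just above the highest vehicle sample. The log2 fold change was 0.24 (SE 0.059, 95% interval 0.12 to 0.36, adjusted p = 0.0013). Of its exonic bases, 19.3% also belong to BCL2L12 on the opposite strand, whose log2 fold change was 0.16 (adjusted p = 0.035), and whether the counting used strand is not given in the sources used here.

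IRF5, a factor of Toll-like receptor signaling best known from myeloid cells, was scarce (ENSG00000128604, chromosome 7 at 128937612 to 128950035, plus strand). Vehicle samples held 55, 43 and 38 counts and SCH samples 72, 82 and 80 counts, or 2.82, 2.40 and 2.14 CPM against 4.13, 4.4 and 4.21 CPM. The groups were apart, and the vehicle samples varied more among themselves than the SCH samples did. Its log2 fold change was 0.79 (SE 0.18, 95% interval 0.41 to 1.17, adjusted p = 0.00078), and 0.33 with limma on log2(FPKM + 1), a scale that understates the change of low genes.

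STAT2, the STAT that signals almost only for interferon-α, -β and -λ, had the second largest log2 fold change of the 8 (ENSG00000170581, chromosome 12 at 56341597 to 56360155, minus strand). It measured 46.5, 50.4 and 47.5 CPM with vehicle and 90.1, 87.0 and 86.9 CPM with SCH. All SCH samples were well above all vehicle samples. The fold change was 1.83 and the log2 fold change 0.87 (SE 0.058, 95% interval 0.75 to 0.99, adjusted p = 9.4e-12). The second place among the 8 was not stable. IRF5 exceeded STAT2 without vehicle sample 1 (0.91 against 0.85), and IRF9 did so without SCH sample 3 (0.98 against 0.89).

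IRF9, the DNA-binding partner that brings STAT2 to the ISRE, was the scarcest of the 8 (ENSG00000213928, chromosome 14 at 24161053 to 24166565, plus strand). It had 15, 16 and 15 counts in the vehicle samples and 31, 28 and 19 in the SCH samples, or 0.769, 0.891 and 0.843 CPM against 1.78, 1.5 and 0.999 CPM. SCH sample 3 lay near the vehicle samples, and the other SCH samples lay clearly above them. The log2 fold change of 0.76 had a wide interval (SE 0.31, 95% interval 0.11 to 1.41, adjusted p = 0.0405) and was 0.17 with limma on log2(FPKM + 1). The call was lost with DESeq2 (adjusted p = 0.10), without the filter on low counts (adjusted p = 0.0538) and when any one sample other than SCH sample 3 was left out (adjusted p = 0.0653 to 0.177). Of the exonic bases of IRF9, 48.4% are shared on the same strand with AL136295.5, which had 12, 14 and 13 counts with vehicle and 13, 28 and 22 with SCH, so the level of IRF9 is uncertain.

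Promoter sequences from RefSeq (GRCh38.p14) were found for 5 of the 8 genes, IRF1, IRF5, IRF9, STAT2 and STAT3, in 8 windows from 250 bases before to 50 bases after a start; IRF2, IRF3 and IRF7 had no entry. Both strands were searched for the core of the ISRE (GAAA, any 2 bases, and GAAA again), for the gamma-activated site that STAT dimers bind (GAS, TTCNNNGAA) and for the κB motif of NF-κB. The ISRE core occurs in 3.57% of all 34943 promoter windows of this length, GAS in 7.66% and κB in 11.3%. Matches were present for IRF9 and IRF1 only, and no match overlapped another. Their 250 bases before the start are shown for that reason, a choice made after the search, with the matches in capitals. For IRF9 the printed stretch is chr14:24161015-24161264 on the plus strand, with GAS beginning at base -63 from the RefSeq start. That start and the match lie inside the gene model described above, which begins at 24161053.
IRF9 promoter: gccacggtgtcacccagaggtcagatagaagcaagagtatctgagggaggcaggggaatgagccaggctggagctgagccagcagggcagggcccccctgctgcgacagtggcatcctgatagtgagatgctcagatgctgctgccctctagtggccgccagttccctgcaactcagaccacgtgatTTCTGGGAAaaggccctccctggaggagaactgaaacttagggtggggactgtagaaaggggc
For IRF1 it is chr5:132490774-132491023 on the minus strand, with GAS beginning at base -124 and κB at base -50.
IRF1 promoter: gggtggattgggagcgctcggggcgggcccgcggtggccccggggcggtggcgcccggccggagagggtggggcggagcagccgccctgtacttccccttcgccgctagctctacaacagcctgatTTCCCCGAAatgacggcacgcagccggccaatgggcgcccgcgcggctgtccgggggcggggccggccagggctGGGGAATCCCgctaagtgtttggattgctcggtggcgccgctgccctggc
A match describes letters in the reference and no binding was measured. Among the 10277 tested genes with a promoter sequence, 32.0% rose and 30.3% fell, and the shares were 32.4% and 33.3% for the 411 with the ISRE core, 31.2% and 32.6% for the 884 with GAS and 33.1% and 29.1% for the 1790 with κB. The shares with a motif were close to those of all genes with a promoter sequence.

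IRF1, a tumor suppressor and activator that interferon-γ induces, also rose (ENSG00000125347, chromosome 5 at 132481609 to 132490798, minus strand). The vehicle samples gave 28.3, 33.0 and 27.8 CPM and the SCH samples 42.7, 42.6 and 42.2 CPM. The SCH samples lay within 1 CPM of each other and above the highest vehicle sample. The log2 fold change was 0.52 (SE 0.073, 95% interval 0.37 to 0.67, adjusted p = 1.9e-06), a fold change of 1.43. C5orf56 covers 22.0% of the exonic bases of IRF1 on the opposite strand and went the other way, from 42, 45 and 36 counts to 19, 17 and 17 (log2 fold change -1.20, adjusted p = 4.2e-04).

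IRF2 binds the same sequence as IRF1 and often holds its target genes down (ENSG00000168310, chromosome 4 at 184387713 to 184474580, minus strand). Its level was 24.5, 24.2 and 25.6 CPM with vehicle and 31.0, 33.3 and 37.2 CPM with SCH. The SCH samples were spread more widely than the vehicle samples and stayed above them. The log2 fold change was 0.45 (SE 0.078, 95% interval 0.29 to 0.61, adjusted p = 2.9e-05).

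Because IRF1 and IRF2 compete for sites, their ratio was compared too. It was 0.462, 0.545 and 0.434 in FPKM with vehicle and 0.550, 0.511 and 0.453 with SCH. FPKM divides IRF1 by 7799 bases and IRF2 by 3116. In CPM, which leaves length out, the ratio was 1.16, 1.36 and 1.09 with vehicle and 1.38, 1.28 and 1.13 with SCH. Which gene has more message thus depends on the length used. The groups overlapped, and the log2 difference of 0.074 was not told apart from the spread between samples (exact two-sided permutation test, p = 0.7, with 0.1 the smallest possible). Of the 3 genes for IRF2-binding cofactors, IRF2BPL rose (log2 fold change 0.33, adjusted p = 3.3e-04), and IRF2BP1 (0.15, adjusted p = 0.057; raised under 6 alternatives) and IRF2BP2 were not called.

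STAT3, which carries IL-6 family signals and supports growth of many TNBC cells, rose less than STAT2 in log2 terms, with intervals that did not overlap (ENSG00000168610, chromosome 17 at 42313324 to 42388568, minus strand). It was measured at 151, 146 and 152 CPM with vehicle and 202, 198 and 196 CPM with SCH. Both groups were tight and well separated. The log2 fold change was 0.41 (SE 0.048, 95% interval 0.31 to 0.51, adjusted p = 1.3e-07), a fold change of 1.33.

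Other genes of the families were compared in the same fit. STAT5A, STAT5B (both of prolactin and growth hormone signaling) and STAT6 (of interleukin-4 signaling) were not called, with log2 fold changes of 0.13 (95% interval -0.034 to 0.29, adjusted p = 0.166), 0.13 (adjusted p = 0.116) and -0.074 (adjusted p = 0.224), and their groups overlapped. With scaling by library size alone STAT5A and STAT5B were called raised, as was STAT5A without vehicle sample 2 and STAT5B without SCH sample 1. IRF4, IRF8 and STAT4, which have their main roles in lymphocytes and myeloid cells, had at most 18 counts in any sample and were not tested.

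**Figure D2:**
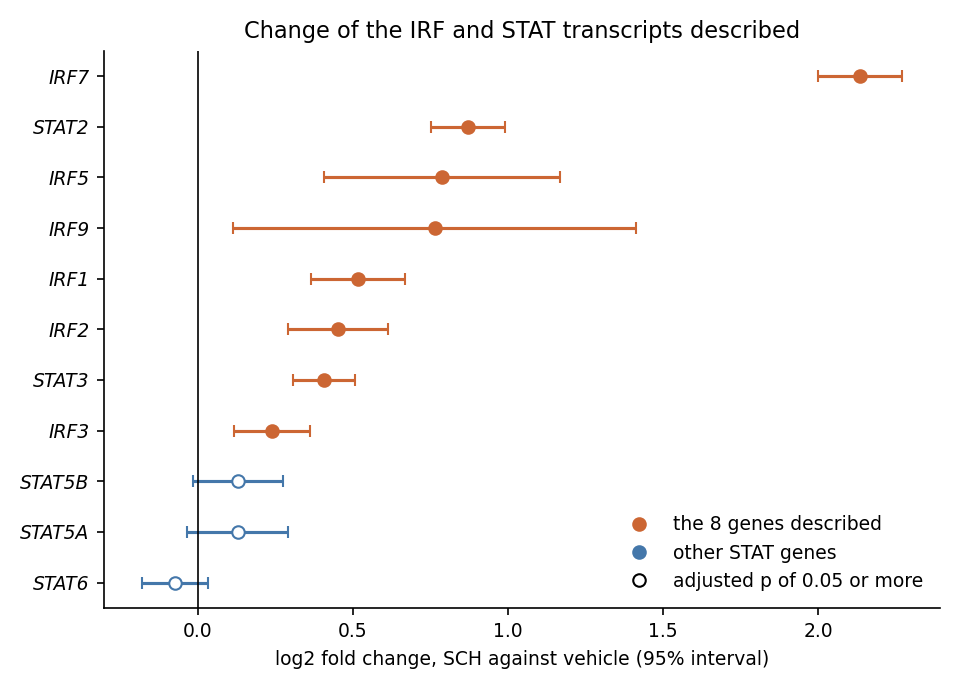
Log2 fold change of SCH against vehicle (x axis) for the 8 genes (orange) and for STAT5A, STAT5B and STAT6 (blue), with 95% intervals from the edgeR fit and open circles where the adjusted p was 0.05 or more. The interval of IRF7, 2.0 to 2.27, lies to the right of the intervals of the other genes shown.

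Levels were ordered by FPKM, which divides by all annotated exonic bases of a gene, so the order depends on that length. With vehicle the order was IRF3 (33.0 ± 2.70 FPKM, SD, n = 3), STAT3 (16.4 ± 0.342), IRF2 (7.68 ± 0.219), STAT2 (7.62 ± 0.322), IRF7 (7.17 ± 0.340), IRF1 (3.68 ± 0.361), IRF5 (0.541 ± 0.0764) and IRF9 (0.213 ± 0.0157). IRF2, STAT2 and IRF7 overlapped in that order, and the other neighbours did not. With SCH it was IRF3 (39.2 ± 2.32), IRF7 (31.7 ± 0.0871), STAT3 (21.9 ± 0.399), STAT2 (14.0 ± 0.337), IRF2 (10.5 ± 0.949), IRF1 (5.29 ± 0.0469), IRF5 (0.942 ± 0.0304) and IRF9 (0.365 ± 0.102), with no neighbours overlapping. In this FPKM order IRF7 moved from the fifth place to the second. The order in CPM differed. STAT3 was above IRF3 (mean 150 against 130 CPM with vehicle, 199 against 153 with SCH). IRF7 was below IRF1 with vehicle (19.5 against 29.7 CPM) and below STAT2 with SCH (85.7 against 88.0 CPM).

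The make-up of the IRF message shifted with it. The FPKM of the 6 IRF genes summed to 52.3 ± 2.72 with vehicle and 88.0 ± 1.59 with SCH (SD, n = 3). IRF7 supplied 13.7 ± 1.07% of that sum with vehicle and 36.0 ± 0.624% with SCH, and IRF3 supplied 63.1 ± 1.93% and then 44.5 ± 1.83%. The level of IRF7 relative to IRF3 went from 0.222, 0.194 and 0.239 to 0.759, 0.818 and 0.851, without overlap. STAT2, STAT3, STAT5A, STAT5B and STAT6 together went from 58.4 ± 1.69 to 70.3 ± 1.52 FPKM. STAT2 went from 13.0 ± 0.355% to 19.9 ± 0.370% of that sum and STAT3 from 28.2 ± 1.36% to 31.2 ± 0.379%, while STAT6 went from 39.3 ± 0.769% to 31.2 ± 0.567%. These sums, shares and ratios are of FPKM and depend on the gene lengths used, and no test was run on them.

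**Figure D3:**
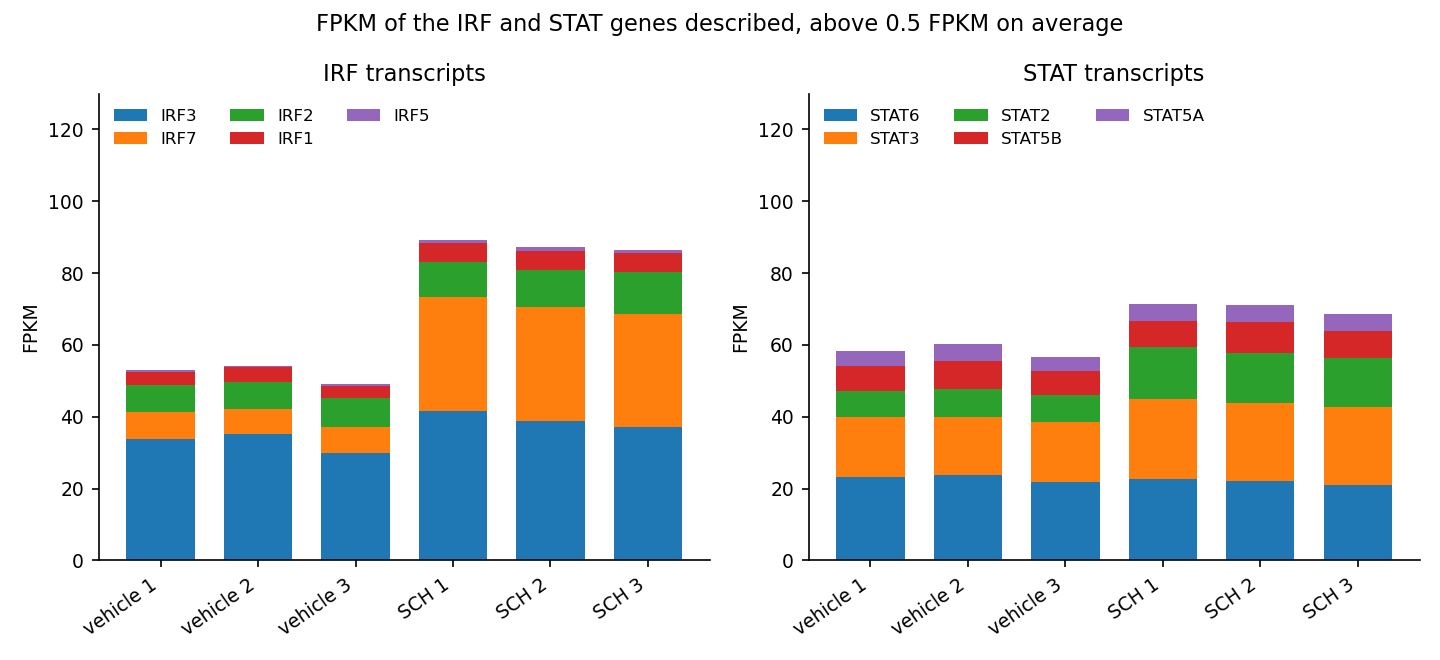
Stacked FPKM (y axis, from 0) of the IRF genes (left) and STAT genes (right) described, where the mean is above 0.5 FPKM, for each of the 6 samples, one color per gene. The IRF7 segment is thin in the vehicle samples and close in height to the IRF3 segment in the SCH samples, and the STAT6 segment keeps about the same height.

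Of 21 genes that sense nucleic acids or bacterial products and relay the signal to IRF3, IRF5 and IRF7, 18 were tested, 12 rose and 2 fell (median log2 fold change 0.38), beside 29.3% raised and 29.4% lowered among all genes. TMEM173, which encodes STING, the adaptor for cytosolic DNA, was at 19.4, 19.1 and 17.1 CPM with vehicle and 49.4, 40.9 and 41.0 with SCH, without overlap (log2 fold change 1.24, SE 0.084, adjusted p = 1.5e-11). MYD88, the adaptor of most Toll-like receptors, rose by 0.69 in log2 (adjusted p = 6.2e-10), from 48.9 ± 1.27 to 79.1 ± 3.23 CPM. The raised genes also held the RNA sensors DDX58 (RIG-I), IFIH1 (MDA5) and DHX58, the adaptor TICAM1 and the kinase TBK1, which phosphorylates IRF3. IRAK1, a kinase downstream of MYD88 and the most abundant gene of the list, fell from 511 ± 25.2 to 362 ± 7.0 CPM (log2 fold change -0.50, adjusted p = 5.0e-09), and so did MAVS, the adaptor of the RNA sensors (-0.17, adjusted p = 0.0041). MAVS was not compared gene by gene across the alternatives, and library size scaling shifted the median of all genes up by 0.10. CGAS, the DNA sensor upstream of STING, was not called (-0.027, adjusted p = 0.728). TBK1, DDX58, IFIH1, DHX58, TICAM1, MAVS and CGAS were picked from this list after their values were seen.

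Few reads came from interferon genes. Of 10 interferon genes, 9, among them IFNB1 and IFNG, had 0 counts in all 6 samples, which at 3 counts per library allows up to 0.154 to 0.172 CPM. IFNL1, an interferon-λ gene, had 0, 1 and 1 counts with vehicle and 5, 4 and 4 with SCH, too few to be tested. These limits cover counting error only.

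Of 10 interferon receptor and JAK genes, 9 were tested, 7 rose (77.8%) and none fell (median 0.42), beside 29.3% raised and 29.4% lowered of all tested genes. JAK1, the kinase shared by all interferon receptors and the most abundant of the list, went from 139 ± 5.11 to 201 ± 3.64 CPM (log2 fold change 0.53, adjusted p = 3.2e-09). TYK2, its partner at the interferon-α receptor, rose by 0.57 (adjusted p = 7.8e-09) and IFNGR1, the ligand-binding chain of the interferon-γ receptor, by 0.42 (adjusted p = 1.5e-05). IFNAR2 and IFNLR1 were not called. The level of IFNAR2 is uncertain, since it had 11 to 26 counts per sample and 83.2% of its exonic bases lie in other gene models, chiefly AP000295.1 on the same strand.

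Upstream of STAT3, 9 ligand genes were listed, those of the IL-6 family and IL10, which acts through other receptors, and 6 of them were tested. Of 6 receptor genes of the IL-6 family, 5 were tested. Among the ligands tested 2 rose (33.3%) and 1 fell (16.7%), beside 29.3% raised and 29.4% lowered of all genes, so the raised share was near that background. IL11, which signals through gp130 to STAT3, was at 102, 104 and 105 CPM with vehicle and 185, 187 and 182 CPM with SCH, far apart (log2 fold change 0.83, SE 0.049, adjusted p = 1.2e-12). CLCF1 rose by 0.20 (adjusted p = 0.010; 0.30 under library size scaling), and CNTF fell by 0.48 (adjusted p = 0.040), a call lost under 8 of the 15 alternatives, DESeq2 among them. Of the exonic bases of CNTF, 38.6% are shared on the same strand with the readthrough gene ZFP91-CNTF. All 5 receptor genes tested rose (median 0.62, or 0.38 with limma on log2(FPKM + 1)). IL11RA, the receptor of IL11, stood at 2.80 ± 0.371 and then 7.23 ± 0.323 CPM (log2 fold change 1.36, adjusted p = 9.7e-08, and 0.70 with limma on log2(FPKM + 1)), LIFR rose by 0.65 (adjusted p = 6.3e-08), and IL6ST, which encodes gp130 and was the most abundant, rose by 0.35 (adjusted p = 2.2e-05).

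The 17 inhibitors of JAK-STAT signaling had 8 raised (47.1%) and 2 lowered genes (11.8%), beside 29.3% raised and 29.4% lowered overall. Their median of 0.093 was not stable: it lay between 0.027 and 0.20 when 1 sample was left out, each of the 6 moving it by over 1.5 times, and at 0.20 with library size scaling. SOCS1, a feedback inhibitor of JAKs, was low, at 2.61, 2.67 and 1.8 CPM with vehicle and 7.17, 6.71 and 7.99 with SCH (log2 fold change 1.62, SE 0.17, adjusted p = 2.5e-08). SOCS7 rose by 0.64 (adjusted p = 5.7e-07). SOCS2, the feedback inhibitor of growth hormone signaling, fell from 18.3 ± 0.217 to 10.8 ± 1.6 CPM (log2 fold change -0.76, adjusted p = 1.1e-06, and -0.51 with limma on log2(FPKM + 1)). SOCS3, the STAT3-induced inhibitor of gp130, fell as well, from 1500, 1413 and 1451 counts to 1212, 1089 and 1281 (-0.28, adjusted p = 5.9e-04; -0.18 under library size scaling), and was named after its values were seen. PTPN11, a phosphatase and the most abundant of the list, was not called (0.023, adjusted p = 0.692; raised at 0.13 under library size scaling).

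Of 36 interferon-stimulated genes with an ISRE, 33 were tested, 19 rose (57.6%) and 2 fell (6.06%), with a median of 0.25, beside 29.3% raised and 29.4% lowered over the whole table. IFI6, an antiviral and anti-apoptotic protein of mitochondria and the endoplasmic reticulum, was at 25.5, 26.7 and 27.2 CPM with vehicle and 62.7, 61.5 and 62.7 with SCH, without overlap (log2 fold change 1.24, SE 0.064, adjusted p = 1.6e-13). SAMD9 and IFIT2, both antiviral, rose by 0.93 and 0.72 (adjusted p = 7.6e-11 and 1.9e-10). Another 12 genes of the list were not called, among them IFIT1, MX2 and RSAD2, and IFITM3, the most abundant, had a log2 fold change of 0.012 (adjusted p = 0.845; raised under library size scaling). The lowered genes were IFIT5 (-0.17, adjusted p = 0.026) and EIF2AK2, the RNA-dependent kinase PKR (-0.22, adjusted p = 0.0017). Neither was compared gene by gene across the alternatives, and library size scaling shifted the median of all genes up by 0.10.

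Of 23 known IRF1 target genes 20 were tested, 13 rose (65%) and 2 fell (10%), with a median of 0.33, again beside 29.3% raised and 29.4% lowered in general. GBP2, an interferon-γ-induced GTPase, had 11.5, 12.7 and 13.8 CPM with vehicle and 35.8, 36.6 and 32.8 with SCH, without overlap (log2 fold change 1.47, SE 0.086, adjusted p = 1.2e-12). TAP1, which pumps peptides to class I molecules, rose by 1.00 (adjusted p = 1.5e-12), and HLA-E, the most abundant of the list, by 0.35 (adjusted p = 1.5e-06). CIITA, the master regulator of class II genes, fell from 26.9 ± 1.2 to 12.5 ± 0.659 CPM (log2 fold change -1.10, adjusted p = 1.5e-10, and -0.50 with limma on log2(FPKM + 1)), as did PSMB8, a subunit of the immunoproteasome (-0.26, adjusted p = 8.1e-04). PSMB8 was not compared gene by gene across the alternatives, and library size scaling shifted the median of all genes up by 0.10.

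Of 29 known STAT3 target genes 23 were tested, 13 rose (56.5%) and 6 fell (26.1%), with a median of 0.22, beside 29.3% raised and 29.4% lowered among all tested genes. The list includes STAT3 itself and shares IL6ST and OSMR with the receptors and SOCS3 with the inhibitors. Among the other lists, USP18 is in both the inhibitors and the interferon-stimulated genes, and BST2 is in both the latter and the IRF1 targets. JUNB, an AP-1 subunit, was at 51.6, 50.6 and 44.4 CPM with vehicle and 169, 152 and 155 with SCH (log2 fold change 1.70, SE 0.063, adjusted p = 3.7e-16). ICAM1, an adhesion molecule, rose by 0.94 (adjusted p = 5.1e-13) and MCL1, a survival protein with the highest FPKM of the list averaged over all samples, by 0.18 (adjusted p = 0.0016; 0.28 under library size scaling). BIRC5, which encodes survivin, fell from 173 ± 1.6 to 87.1 ± 5.41 CPM (log2 fold change -0.99, adjusted p = 3.1e-13). CCND1 was above MCL1 with vehicle (134 against 101 FPKM) and below it with SCH (75.9 against 115). The other lowered genes were SOCS3, MYC, CCND1, BCL2L1 and VEGFA, with roles in feedback, growth, the cell cycle, survival and blood vessel formation.

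**Figure D4:**
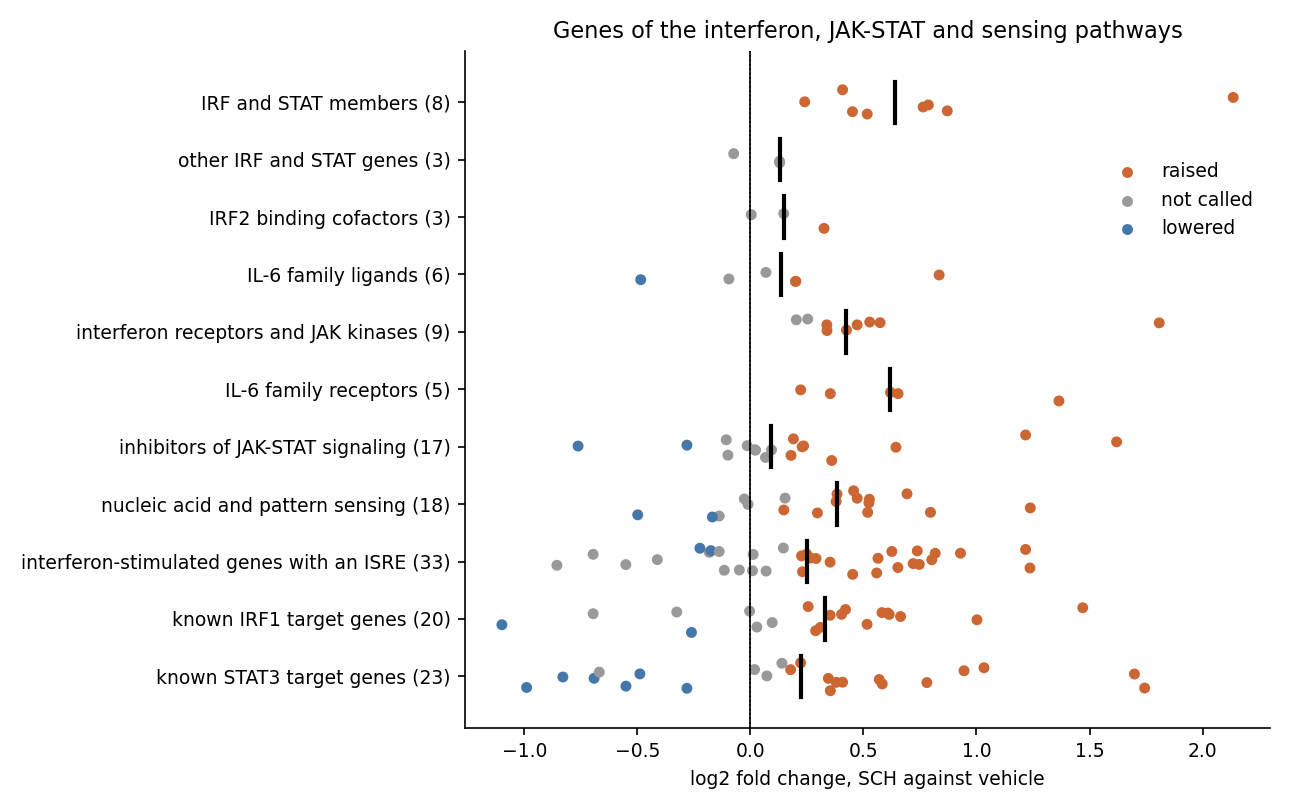
Log2 fold change (x axis) of every tested gene of the 8 and of each pathway list, with the number tested in parentheses, orange for raised, blue for lowered and gray for not called, and a black bar at the list's median. The dotted line marks the median of all tested genes, which lies on the zero line, and the lists of inhibitors, interferon-stimulated genes and STAT3 targets spread to both sides of it.

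To find the transcripts with the most similar levels across samples, log2 CPM was centered on each gene's mean over the 6 samples. It was compared by the root mean square difference (RMS) over 13430 genes with a mean of at least 1 CPM. With 2 groups of samples, a close match largely means a similar log2 fold change, and shared regulation was not tested. The log2 fold changes were 2.22 for NEDD9, 2.13 for TP53INP1 and 0.41 for EXO1. NEDD9, a scaffold of integrin signaling, and TP53INP1, a p53-induced gene, lay closest to IRF7, at 0.078 and 0.081 log2 units. IRAK2, a kinase of Toll-like receptor signaling, and PLCXD2 were closest to STAT2 (0.025 and 0.028), and EXO1, an exonuclease of DNA repair, and CMAS, an enzyme of sialic acid metabolism, to STAT3 (0.016 and 0.018). For IRF1 they were PLEKHH1 and ANGEL1, for IRF2 MFAP1 and CASTOR3, for IRF3 REX1BD and TTLL3, for IRF5 SCARF2 and HBP1 and for IRF9 AC104794.2 and RHPN1. Among the closest genes the RMS ranged from 0.016 for EXO1 to 0.11 for the neighbours of the scarce IRF9.

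The tested genes within 250 kb moved in both directions around 7 of the 8, and around IRF2, with 4 such genes, 2 rose and none fell. Of all tested genes 29.3% rose and 29.4% fell. Within 250 kb of IRF7, 30 genes were tested, 6 rose, 13 fell and the median log2 fold change was -0.13, and CDHR5, 566 bases away, fell by 1.33 (adjusted p = 0.0061). PHRF1, the nearest gene at 331 bases, was not called (log2 fold change -0.013, adjusted p = 0.881). Around STAT2, 24 genes were tested, 8 rose and 9 fell, with IL23A, a cytokine subunit gene, 1187 bases away and raised by 1.55 (adjusted p = 1.7e-05). Around STAT3, 17 were tested, 7 rose and 3 fell, and STAT5A, only 1381 bases away, was not called. The neighbours of IRF3 (10 raised and 5 lowered of 24), IRF9 (5 and 6 of 26), IRF5 (4 and 1 of 11) and IRF1 (4 and 1 of 8) were split as well.

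**Figure D5:**
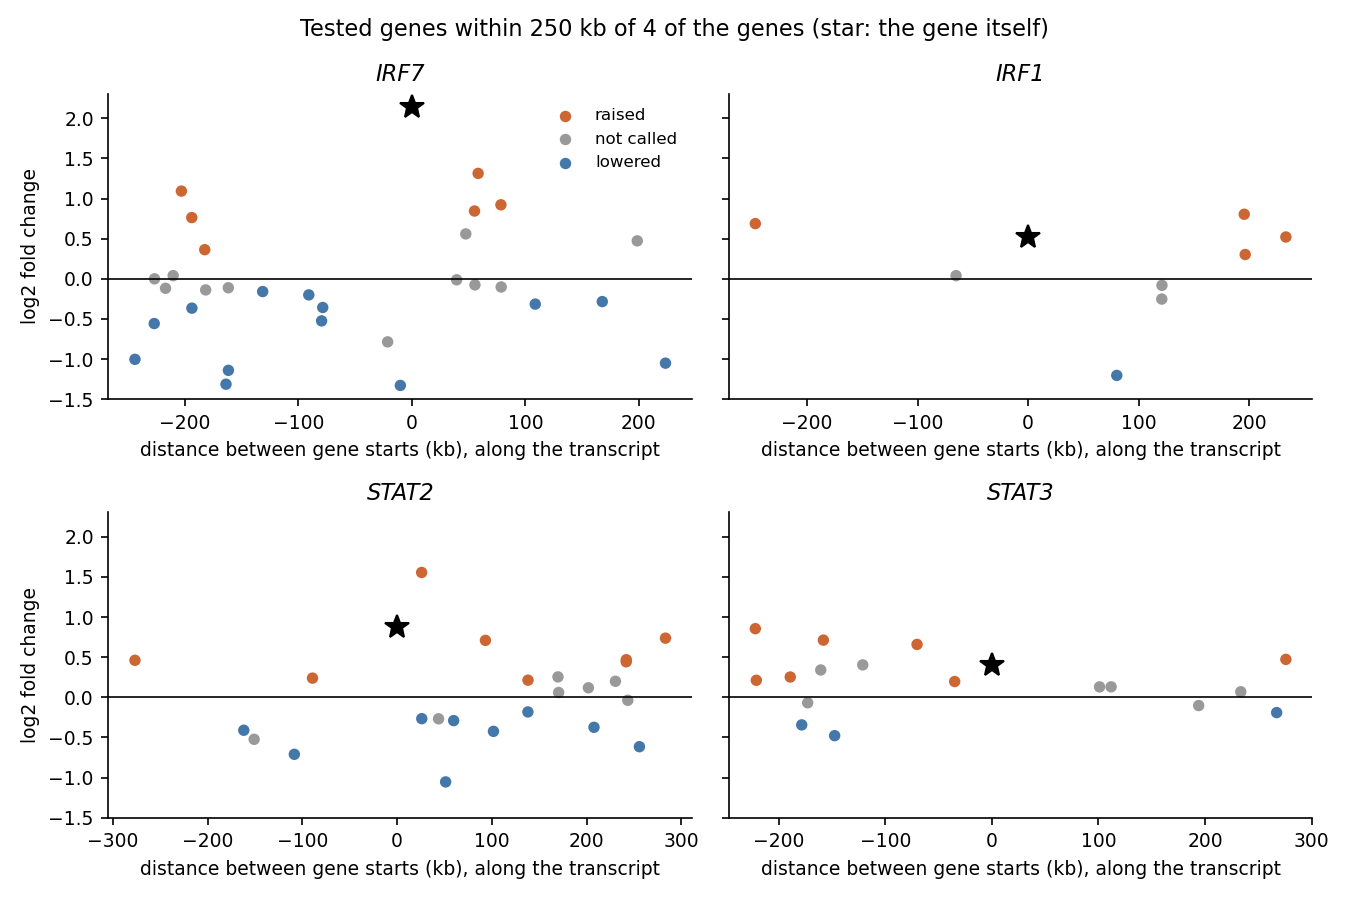
Log2 fold change (y axis) of the tested genes within 250 kb of IRF7, IRF1, STAT2 and STAT3 against the distance between gene starts in kb (x axis, positive in the direction of transcription), orange for raised, blue for lowered and gray for not called, with the gene itself as a black star. The star of IRF7, at 2.14, stands above all 30 of its tested neighbours, while IL23A, at 1.55, stands above STAT2.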

How the data were processed

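The authors deposited raw counts per gene, with no normalization, and FPKM values for each of the 6 samples. RNA was purified with poly-T beads and sequenced on an Illumina HiSeq instrument. The submitters' processing notes name CASAVA 1.8, HISAT2 2.0.5, featureCounts 1.5.0-p3 and DESeq2 1.20.0, and GRCh38. Strand settings are not given in the sources used here, and the labels give RPMI-1640 as the medium where the methods give DMEM. Within a sample the deposited FPKM were proportional to the count divided by gene length. Relative to the total count, the scale of the FPKM was 1.01, 1.01 and 0.995 in vehicle samples 1 to 3. It was 0.941, 0.937 and 0.937 in SCH samples 1 to 3, so sums of FPKM carry this difference between groups. All 58735 genes have the start and end of GENCODE release 29. No library was a copy of another in its group: chi-square over degrees of freedom was 2.12 to 5.75.

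Counts were tested in R 4.3.3 with edgeR 4.0.16 (TMM, filterByExpr, quasi-likelihood test without covariates, Benjamini-Hochberg over all tested genes, threshold 0.05). The study's methods name no test for these counts, and the notes give DESeq2 no role. The common biological coefficient of variation was 5.17%. Alternatives were RLE, library size and upper quartile scaling, no filter, a minimum of 10 counts per sample, a test with DESeq2 1.42.0, limma 3.58.1 on log2(FPKM + 1) and log2(FPKM + 0.1), a replicate block, each sample left out and a log2 fold change of at least 1. On simulated data drawn from the means of 14557 of these genes, 76.8% of changes of 0.5 and 93.9% of changes of 1 on the log2 scale were recovered, with 6.15% false calls. Only 99 genes were changed by 0.5 and 98 by 1 there, and all genes had the same dispersion. In the real comparison 58.7% of genes were called, so these rates are not the error rates of the calls reported here. Python 3.11.15 was used for motif searches and plots.

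The members, the lists and the alternatives were chosen with earlier results of these data known. Named genes were the 8, the other IRF and STAT genes, up to 3 changed genes with the smallest p (mean of at least 10 counts) and the most abundant gene by FPKM of each list, and the 2 closest profiles of each of the 8. SOCS3, PTPRC and other genes outside this rule were added after their values were seen. Some genes of the families and lists are not reported here.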

Additional observations from a re-analysis of the deposited data

How the results depend on the processing

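The 15 alternatives other than the required log2 fold change of at least 1 were run for 42 of the genes in the text. These 42 leave out PTPRC, the closest profiles and, except for SOCS3, the genes picked after their values were seen. The call, or the lack of one, held for 35 of them and for 7 of the 8 IRF and STAT genes, the exception being IRF9. The other exceptions were STAT5A, STAT5B, IRF2BP1, CNTF, PTPN11 and IFITM3. None of the 42 changed direction past the threshold. STAT6 was never called, and its log2 fold change ran from -0.11 to 0.030, so its sign did not hold. The inhibitors called numbered 7 to 11 when 1 sample was left out. Requiring a log2 fold change of at least 1 left 1292 changed genes, 573 raised and 719 lowered, with 1 of the 8 among them. Library size scaling raised the changed genes among the other IRF and STAT genes from 0 to 2 and among the IRF2 cofactors from 1 to 2, and the latter also reached 2 without the filter and with the replicate block. Leaving out 1 sample at a time gave 7808 to 8489 changed genes (3935 to 4286 raised, 3873 to 4203 lowered), 7 to 8 of the 8 called, 0 to 1 of the other IRF and STAT genes, 1 to 2 IRF2 cofactors, and a difference of 0.0042 to 0.17 in the log2 ratio of IRF1 to IRF2. STAT5A was called raised without vehicle sample 2, STAT5B without SCH sample 1, and IRF2BP1 without vehicle sample 2, SCH sample 2 or SCH sample 3. The calls of IRF9 (at most 31 counts in a sample) and CNTF were lost under several alternatives, and the cause was not tested. Samples with the same replicate number showed no common deviation (r across genes 0.046, -0.022 and 0.022). Samples with different numbers gave -0.084 to 0.066. With 3 samples per group this cannot exclude that samples of the same number were prepared together. The replicate block called 8705 genes and all 8.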

Other observations

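Among the 1059 tested genes with a transcription factor family in the deposited annotation, 376 rose (35.5%) and 258 fell (24.4%), with a median log2 fold change of 0.093. IRF7 was at position 8 of these when ordered by log2 fold change. Ahead of it were MAFA, MEIS3, EGR3, ID2, POU3F2, NR4A1 and RCOR2, with log2 fold changes of 2.94, 2.90, 2.76, 2.45, 2.40, 2.23 and 2.17 and mean levels between 0.651 CPM for EGR3 and 7.80 CPM for NR4A1, beside 52.6 CPM for IRF7. EGR1, an immediate early gene, followed at position 10 with a log2 fold change of 1.92 and a mean of 73.8 CPM. IRF1 stood at position 178 and IRF2 at position 212. These genes were named after their values were seen.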
